A study of Mus musculus with 9 samples.

Results

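Egr1, Egr2 and Egr3, 3 of the 9277 genes in the deposited table, encode zinc finger transcription factors of the early growth response family. They were taken by gene symbol and selected on their measured levels in these libraries, which were lower in mice with cleavage-resistant Tie1, so the difference between genotypes is described here without a test. The remaining relatives listed for comparison, Egr4 and Wt1, were not analysed here. The libraries hold RNA of mouse lung endothelial cells, with 4 libraries of Tie1-WT (wild type) and 5 libraries of Tie1-CR, in which Tie1, an endothelial receptor of the Tie family, resists proteolytic cleavage during inflammatory insults. All 9 library names carry PBS, which the 2 genotypes therefore share. The sources used here do not give strain, age, sex or how the cells were isolated. Nor do they tie libraries to separate mice, and the spread on which the p-values rest may be technical. Sample numbers follow genotype, and an effect of processing order cannot be told apart from one of genotype.

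Early growth response genes are transcribed within minutes of a growth factor, shear stress, calcium or stress signal, without new protein synthesis. The signal commonly runs through the ERK kinases to ternary complex factors bound with serum response factor (SRF) at a CArG box in the promoter, and calcineurin with NFAT factors can also drive Egr2 and Egr3. The proteins bind GC-rich sites through zinc fingers, and the corepressors Nab1 and Nab2 bind them and limit their activity. In endothelium, Egr1 is known for inducing genes of coagulation, adhesion and growth factor signalling, Egr3 as a gene that VEGF induces, and Egr2 best from peripheral nerve and lymphocytes.

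The Egr2 promoter is shown because the 3 genes differed together and a CArG box is the site through which SRF is known to act on such genes. Sequence came from RefSeq windows on GRCm38.p6, each running from 250 bases before to 50 bases after a start. Of the 3 genes, 1 matched, Egr2, with 5 windows. The stretch below is chr10:67537619-67537868 on the plus strand, the 250 bases before a start at 67537869 that GENCODE M21 also annotates, and it holds 0 GENCODE exons of Egr2. Capitals mark a CArG box, at 67537797 to 67537806, which begins 72 bases before the start. Another CArG box, at 67537494 to 67537503, lay in a different Egr2 window, outside this stretch.
Egr2 promoter: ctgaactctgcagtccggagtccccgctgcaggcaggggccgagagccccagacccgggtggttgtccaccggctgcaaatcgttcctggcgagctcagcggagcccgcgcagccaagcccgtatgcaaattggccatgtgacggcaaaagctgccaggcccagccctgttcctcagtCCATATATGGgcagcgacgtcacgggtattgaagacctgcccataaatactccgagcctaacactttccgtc

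A CArG box was searched on both strands and was present in 1.63% of the 32851 windows. Leaving out Egr2, 7158 measured genes had a window, of which 193 fell in Tie1-CR (2.696%) and 81 rose (1.13%) by limma at an adjusted p below 0.05. Of the 110 genes (1.54%) that held a CArG box, 5 fell (4.55%) and 2 rose (1.82%). The Egr binding site was searched on both strands as GCGTGGGCG and GCGGGGGCG, which cannot match at the same position. Of 98 genes with GCGTGGGCG, 2 fell (2.04%) and 0 rose. Of 484 genes with GCGGGGGCG, 18 fell (3.72%) and 8 rose (1.65%). The cyclic AMP response element TGACGTCA was present in the windows of 268 genes, of which 15 fell (5.60%) and 3 rose (1.12%). A match describes letters in a window and does not show that a factor was bound.

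The 3 genes lie on different chromosomes of GRCm38. Egr1 (ENSMUSG00000038418.7) lies on chromosome 18 from 34859823 to 34864984, Egr2 (ENSMUSG00000037868.15) on chromosome 10 from 67535475 to 67542188, and Egr3 (ENSMUSG00000033730.4) on chromosome 14 from 70077203 to 70082614. Each is on the plus strand, the longest annotated transcript of each has 2 exons, and no other GENCODE gene overlaps any of them on either strand.

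Egr1 is the best studied member, a broad mediator of growth and injury signals. Its level in CPM, the gene's reads scaled to a common library total, measured 2583, 2504, 2081 and 1688 in Tie1-WT replicates 1 to 4, and 720.4, 934, 868, 709 and 875 in Tie1-CR replicates 1 to 5. The groups did not overlap, and the lowest Tie1-WT library lay 1.81-fold above the highest Tie1-CR library. Means were 2214 ± 414 CPM (SD, n = 4) and 821 ± 100.5 CPM (SD, n = 5), a log2 difference of -1.42 (SE 0.13) on the log2(CPM + 1) scale. In bulk RNA, fewer cells with a transcript and less transcript per cell cannot be told apart.

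Egr2, known as the myelination regulator Krox20, was a rare transcript. It measured 15.9, 19.1, 10.3 and 12.8 CPM in Tie1-WT replicates 1 to 4 and 3.53, 4.97, 4.60, 3.31 and 3.83 CPM in Tie1-CR replicates 1 to 5. The lowest Tie1-WT library, replicate 3, lay 2.08-fold above the highest Tie1-CR library, replicate 2. Means were 14.5 ± 3.77 CPM (SD, n = 4) and 4.05 ± 0.710 CPM (SD, n = 5), and the log2 difference was -1.60 (SE 0.17).

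Egr3, which VEGF and calcium signals induce, was rare as well. It measured 11.98, 15.6, 10.4 and 8.49 CPM in Tie1-WT replicates 1 to 4 and 2.702, 5.50, 4.26, 3.09 and 4.10 CPM in Tie1-CR replicates 1 to 5. Of the 3 genes it had the narrowest gap between groups, 1.54-fold between Tie1-WT replicate 4 and Tie1-CR replicate 2. Means were 11.6 ± 3.03 CPM (SD, n = 4) and 3.93 ± 1.10 CPM (SD, n = 5), and the log2 difference was -1.35 (SE 0.19).

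**Figure D1:**
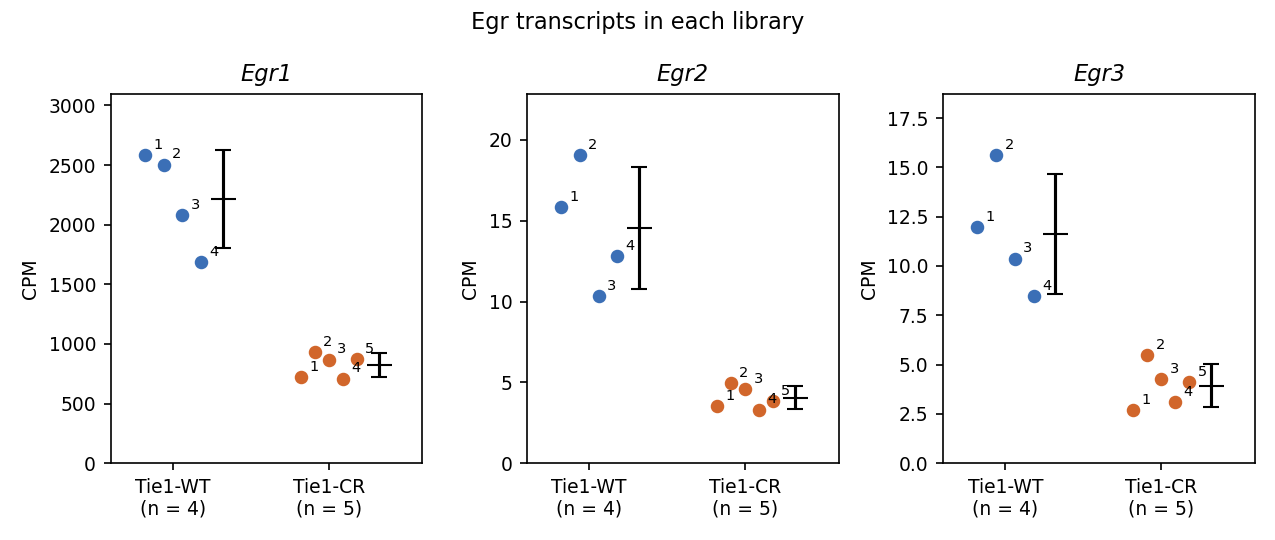
CPM of Egr1, Egr2 and Egr3 in each library, with the replicate number beside each point and the mean ± SD as bars, on linear axes that start at 0. All 5 Tie1-CR libraries lie below all 4 Tie1-WT libraries in each panel, and the Egr1 axis covers far higher levels than the other panels.

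All 3 genes had groups that did not overlap, as 6.74% of all genes did in that direction and 3.74% in the opposite one, and all 3 were at a log2 difference of -1 or less, as 0.28% of all genes were. From the lowest difference upward, Egr2, Egr1 and Egr3 stood at ranks 2, 6 and 9 of 9277. These counts follow from how the genes were chosen. The table itself bears on Egr2 and Egr3: it holds genes that reach at least 10.01 CPM in some library, and Egr2 reached 10 CPM in 4 Tie1-WT and 0 Tie1-CR libraries and Egr3 in 3 and 0. Both are therefore in the table only through Tie1-WT, where they were high. Egr1 was above 10 CPM in all 9 libraries.

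Depth bore more on Egr2 and Egr3 than on Egr1. Egr1 values correspond to 31460 to 108484 reads per library, a counting error of 0.304% to 0.564%. Egr2 rested on 502 to 765 reads in Tie1-WT and 147 to 244 in Tie1-CR, with counting errors of 3.62% to 4.46% and 6.40% to 8.25%. Egr3 rested on 418 to 627 and 137 to 226 reads, with errors of 3.99% to 4.89% and 6.65% to 8.54%. These errors cover counting alone, since copies from cDNA amplification were not marked. The coefficient of variation between libraries was larger in each case, at 18.7% and 12.2% for Egr1, 26.0% and 17.5% for Egr2 and 26.1% and 27.9% for Egr3 (Tie1-WT and Tie1-CR).

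The level per length placed Egr1 far above its relatives. Per kilobase of annotated exon, Egr1 measured 494 ± 92.3 CPM in Tie1-WT (SD, n = 4) and 183 ± 22.4 CPM in Tie1-CR (SD, n = 5). Egr2 measured 4.27 ± 1.11 and 1.19 ± 0.209 CPM per kilobase, and Egr3 2.64 ± 0.687 and 0.892 ± 0.249. Across libraries, the ranges of Egr2 and Egr3 overlapped within each genotype. They ran at 3.04 to 5.61 against 1.93 to 3.55 in Tie1-WT and 0.976 to 1.46 against 0.613 to 1.25 in Tie1-CR. Within every library, however, Egr2 lay above Egr3 per length, by 1.17-fold to 1.96-fold.

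Proportions between the 3 transcripts overlapped between genotypes. The ratio of Egr1 to Egr2 per length was 119 ± 25.1 in Tie1-WT (SD, n = 4) and 155 ± 13.1 in Tie1-CR (SD, n = 5), and 1 Tie1-WT library, replicate 3 at 152, lay inside the Tie1-CR range of 142 to 173. The ratio of Egr1 to Egr3 was 191 ± 23.2 and 213 ± 34.8, and that of Egr2 to Egr3 was 1.64 ± 0.278 and 1.37 ± 0.206, with overlapping groups in both. As ratios of mean CPM, Tie1-WT exceeded Tie1-CR 2.696-fold for Egr1, 3.59-fold for Egr2 and 2.96-fold for Egr3. On the log2(CPM + 1) scale, which shrinks differences of rare transcripts, the same 3 values were 2.67, 3.03 and 2.56.

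Within each genotype the 3 genes tended to move together from library to library. This measure removes the mean of each genotype and so does not use the difference between genotypes. It is not free of the choice of genes, which also named their co-variation, with earlier results of these data known. Egr2 and Egr3 are, besides, in the table only through Tie1-WT. The correlations and their p-values are therefore a description and not independent support. In Tie1-WT, replicate 2 lay above the genotype mean in all 3 genes, by 0.20, 0.40 and 0.43 log2 for Egr1, Egr2 and Egr3, and replicate 4 lay below it, at -0.37, -0.13 and -0.38. In Tie1-CR, replicate 2 lay above at 0.19, 0.25 and 0.43, and replicates 1 and 4 lay below in all 3 genes. In 8 of the 9 libraries the 3 genes deviated with the same sign, the exception being Tie1-CR replicate 5, where Egr2 stood at -0.05 and Egr1 and Egr3 at 0.10 and 0.08.

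**Figure D2:**
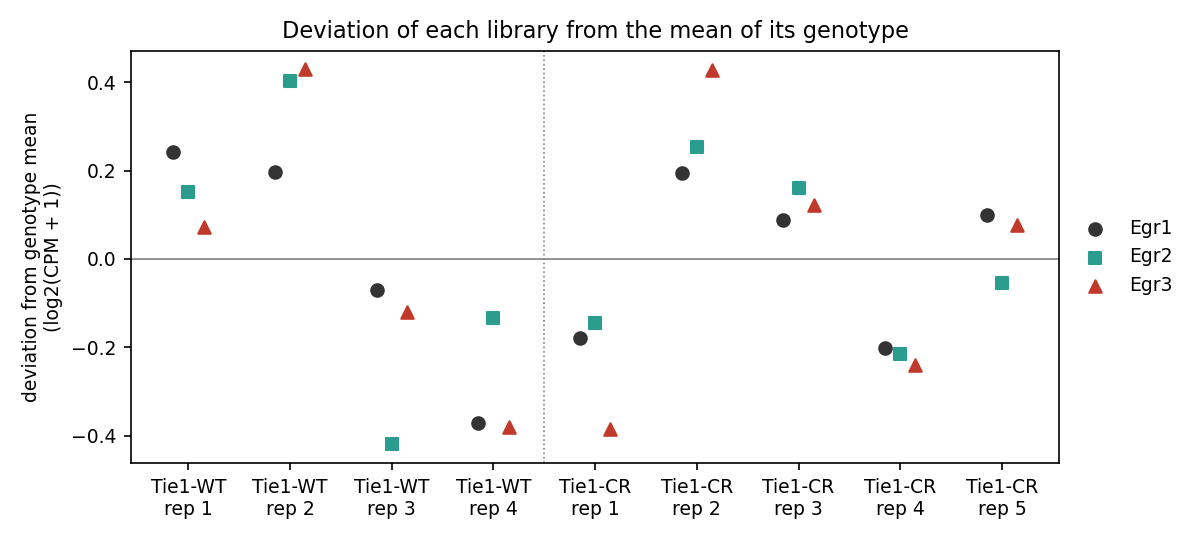
Deviation of each gene from the mean of its genotype on the log2(CPM + 1) scale, for the 4 Tie1-WT libraries left of the dotted line and the 5 Tie1-CR libraries right of it. Symbols of the 3 genes fall on the same side of 0 in every library but Tie1-CR replicate 5.

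Over the 9 libraries, deviations of Egr1 and Egr3 correlated at Pearson r = 0.89 (exact permutation within genotypes, two-sided, adjusted p = 0.0115 over 3 pairs, raw p = 0.00382) and Spearman rho = 0.77 (adjusted p = 0.0396, raw p = 0.0264). Those of Egr2 and Egr3 gave r = 0.81 (exact permutation adjusted p = 0.0286, raw p = 0.0191) and rho = 0.83 (adjusted p = 0.0396, raw p = 0.0201). The pair Egr1 and Egr2 missed the threshold, at r = 0.72 (exact permutation adjusted p = 0.0677, raw p = 0.0677) and rho = 0.72 (adjusted p = 0.0625, raw p = 0.0625). Without the 2 libraries farthest from the median of the first gene, r was 0.86 for Egr1 and Egr3 (raw exact permutation p = 0.0556), 0.92 for Egr2 and Egr3 (0.0292) and 0.81 for Egr1 and Egr2 (0.0417), each over 7 libraries. Within a genotype, where 4 or 5 libraries are too few for a test, r was 0.87, 0.78 and 0.65 in Tie1-WT and 0.96, 0.90 and 0.89 in Tie1-CR for the pairs in that order. With quantile normalization the calls of Egr1 with Egr3 and Egr2 with Egr3 ended (r = 0.86 and 0.72, exact permutation adjusted p = 0.05 and 0.0875) and r of Egr1 with Egr2 was 0.39. Leaving out Tie1-CR replicate 2 also ended both calls (adjusted p = 0.0833 and 0.0964), and that of Egr2 with Egr3 further ended without Tie1-CR replicate 4 (0.0547), Tie1-WT replicate 1 (0.0687) or Tie1-WT replicate 2 (0.110), while Egr1 with Egr2 passed without Tie1-WT replicate 3 (0.0347) or replicate 4 (0.0167).

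The 3 genes varied more within genotypes than most genes of like level. The SD within genotypes was 0.23 log2 for Egr1, 0.28 for Egr2 and 0.33 for Egr3. Among genes within 0.5 log2 of the same mean level, the median SD was 0.11, 0.17 and 0.20. Of these, 86.7% of 83 genes, 78.7% of 512 and 80.5% of 277 had a smaller SD than Egr1, Egr2 and Egr3. Genes near the level of Egr2 and Egr3 were measured only where some library reached 10.01 CPM. Those like genes were therefore selected partly on their spread.

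The 9 measured coregulators, through which Egr proteins act or are removed, had 0 members past the threshold in either direction (limma adjusted p below 0.05) and 2 at an unadjusted p below 0.05, where 1.28% of all genes rose and 2.77% fell, and 2065 of 9277 had an unadjusted p below 0.05. Their median log2 difference was -0.04, beside -0.03 over all genes. Nab2, a corepressor that Egr factors themselves are known to induce, measured 17.3, 20.4, 20.4 and 15.1 CPM in Tie1-WT and 21.5, 17.2, 20.6, 14.7 and 24.2 CPM in Tie1-CR. The groups overlapped throughout, with a log2 difference of 0.09 (SE 0.14, limma adjusted p = 0.740). Nab1, the related corepressor, measured 52.1 to 55.2 CPM in Tie1-WT and 41.0 to 50.8 CPM in Tie1-CR, without overlap, with a log2 difference of -0.21 (SE 0.07, limma adjusted p = 0.0923).

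The other coregulators lay between -0.17 and 0.05 log2. They were the NAB partner Chd4 (-0.15), the Egr-binding helicase Ddx20 (-0.17), the ubiquitin ligases Itch (-0.06) and Wwp2 (-0.04), the coactivators Crebbp (0.05) and Ep300 (0.01), and the Egr2 cofactor Hcfc1 (-0.01).

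Genes known to carry a signal to the Egr promoters followed. Of 10 measured members of the SRF list, 0 passed limma's threshold in either direction, beside 2.77% of all genes that fell and 1.28% that rose. An unadjusted p below 0.05 was found for 1 of the 10, beside 2065 of 9277 genes, and the list median was -0.06 log2. Srf itself measured 48.5 ± 8.79 CPM in Tie1-WT (SD, n = 4) and 40.5 ± 2.56 CPM in Tie1-CR (SD, n = 5), with overlapping groups (limma adjusted p = 0.228). The ternary complex factor Elk3 measured 440.4 ± 7.39 and 436 ± 19.8 CPM (limma adjusted p = 0.884), the SRF coactivator Mkl2 196 ± 9.45 and 187 ± 22.9 CPM (0.633), and the CREB coactivator Crtc3 50.8 ± 3.45 and 58.1 ± 4.91 CPM (0.131). Without Tie1-WT replicate 4, 1 member of this list fell.

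In the ERK cascade and its nuclear kinases, 0 of 17 measured members passed limma's threshold, beside 2.77% of all genes that fell and 1.28% that rose. An unadjusted p below 0.05 was found for 5 of the 17, beside 2065 of 9277 genes, and the list median was -0.01 log2. Mapk3, which encodes ERK1, measured 441 ± 33.6 CPM in Tie1-WT (SD, n = 4) and 456 ± 24.1 CPM in Tie1-CR (SD, n = 5), and the ribosomal S6 kinase gene Rps6ka1 339 ± 33.0 and 348 ± 20.1 CPM (limma adjusted p = 0.682 and 0.786). The members of smallest p were Rps6ka5, the kinase MSK1, at -0.35 log2, and Mapk7, which encodes ERK5, at 0.24 log2 (limma adjusted p = 0.0589 and 0.0764). Transcript levels say nothing of the activity of these kinases.

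Of 9 measured calcineurin and NFAT genes, 1 fell and 0 rose, beside 2.77% and 1.28% of all genes, with a median of -0.04 log2. Nfatc2, an NFAT factor, measured 9.08 ± 1.48 CPM in Tie1-WT (SD, n = 4) and 5.82 ± 0.535 CPM in Tie1-CR (SD, n = 5), with libraries at 7.45 to 10.99 and 5.09 to 6.49 CPM (limma adjusted p = 0.0257). Its call ended with quantile normalization (-0.50 log2, 0.0596), with the replicate block (0.0801), and when any of Tie1-WT replicates 1 to 3 or Tie1-CR replicates 4 and 5 was left out (0.0505 to 0.0814).

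Genes that Egr factors are reported to regulate in vascular or other cells ran in both directions. Of 30 listed targets, 22 were measured, of which 1 fell (4.55%) and 0 rose by limma, beside 2.77% and 1.28% of all genes. An unadjusted p below 0.05 was found for 11 of the 22, beside 2065 of 9277 genes. Leaving out Tie1-CR replicate 1 gave 3 that fell, leaving out Tie1-WT replicate 4 gave 2, and the number was 0 when Tie1-CR replicate 5 or any of Tie1-WT replicates 1 to 3 was left out. Their median was -0.07 log2, and 14 of 22 (63.6%) lay below 0, beside 58.5% of all genes. The tissue factor gene F3 and the urokinase gene Plau, both listed, were among those not analysed here.

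The target that fell was Rcan1, an inhibitor of calcineurin, at 97.9 ± 18.8 CPM in Tie1-WT (SD, n = 4) and 60.6 ± 10.9 CPM in Tie1-CR (SD, n = 5) (limma adjusted p = 0.0338). Its groups overlapped slightly, at 72.6 to 116 and 44.2 to 73.6 CPM. The call ended with the replicate block (0.0535), with robust empirical Bayes (0.0529), and when any of Tie1-WT replicates 1 to 3 or Tie1-CR replicates 4 and 5 was left out (0.0604 to 0.105).

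Other targets, named here after their values were seen, included some on each side of 0 and did not pass. The cell cycle inhibitor Cdkn1a stood at -0.79 log2 with 420.0 ± 162 and 236 ± 61.5 CPM (limma adjusted p = 0.0928). The cyclin gene Ccnd1 stood at -0.41 (limma adjusted p = 0.0608). The VEGF receptor gene Flt1 stood at 0.18, the platelet-derived growth factor gene Pdgfb at 0.21, and the adhesion molecule gene Icam1 at 0.00, with 692 ± 45.6 and 691 ± 45.4 CPM (limma adjusted p = 0.0752, 0.126 and 0.984).

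**Figure D3:**
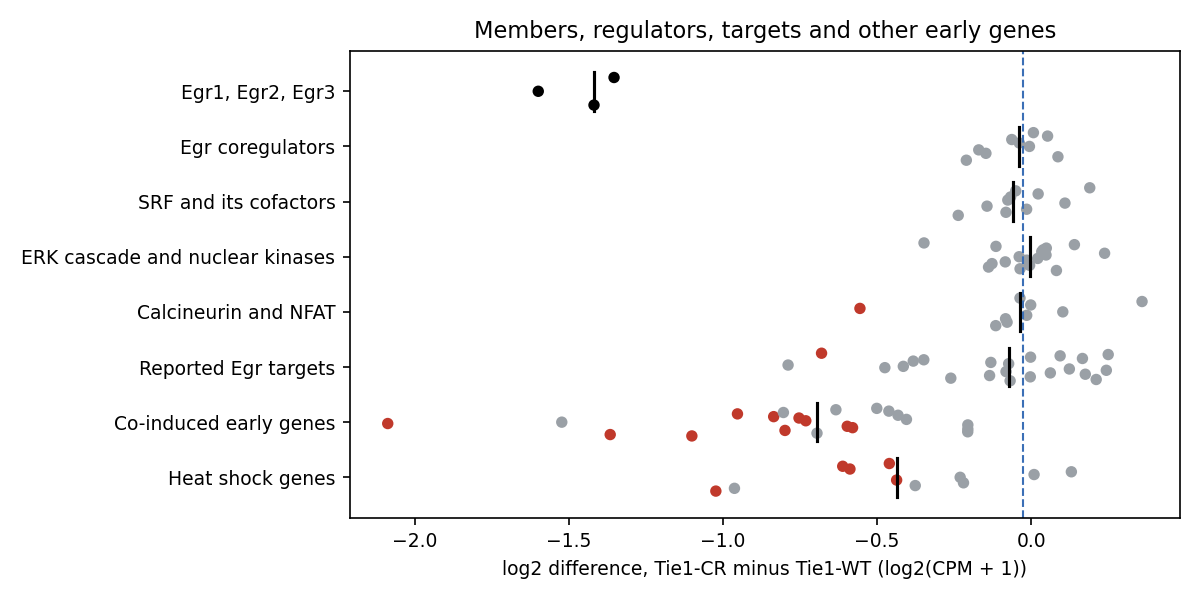
Log2 difference (Tie1-CR minus Tie1-WT, log2(CPM + 1)) of each measured list member, with red for genes past the limma threshold, grey for those not past it, black for the 3 Egr genes, which carry no test, bars for list medians and a dashed line for the median of all genes. Coregulators, SRF, ERK, NFAT and target lists centre near the dashed line, while all 21 early genes and 9 of 11 heat shock genes lie below 0, with medians of -0.70 and -0.44. Among all genes, 58.5% lie below 0.

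Other genes that the same signals induce early were lower with the Egr genes. Of 21 measured early genes, 10 fell (47.6%) and 0 rose, beside 2.77% and 1.28% of all genes. All 21 lay below 0, beside 58.5% of all genes, and the median was -0.70 log2. The AP-1 subunit genes Fosb, Fos and Junb, the stress factor gene Atf3, the mRNA decay factor gene Zfp36 and Ier2 had the smallest p (limma adjusted p = 0.0023, 0.00485, 0.0077, 0.00105, 0.00485 and 0.0144). Atf3 measured 184 ± 63.1 CPM in Tie1-WT (SD, n = 4) and 41.2 ± 7.57 CPM in Tie1-CR (SD, n = 5), Fosb 317 ± 61.1 and 123 ± 26.5 CPM, and Fos 1745 ± 287 and 818 ± 176 CPM, with no overlap in any of the 3. The count of 10 became 5 when Tie1-WT replicate 1 was left out and 6 when its replicate 2 was, and lay at 7 to 13 when any other library was. The call of Ier2 ended without Tie1-WT replicate 1 or 2 (0.0656 and 0.0526). Early genes at the top of this list overlap with genes that earlier results of these data had shown, and they are not independent support for the Egr difference.

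Of 11 measured heat shock genes, which encode chaperones, 5 fell (45.5%) and 0 rose, beside 2.77% and 1.28% of all genes. Of the 11, 9 lay below 0, beside 58.5% of all genes, and the exceptions were Hspd1 at 0.01 and Hsph1 at 0.13 log2. The list median was -0.44 log2, and levels summed to 1015 to 1428 CPM in Tie1-WT and 798 to 1262 CPM in Tie1-CR. The cochaperone gene Dnajb4 measured 40.9 ± 5.41 CPM in Tie1-WT (SD, n = 4) and 29.3 ± 2.12 CPM in Tie1-CR (SD, n = 5), and Dnajb1 215 ± 33.2 and 143 ± 18.6 CPM (limma adjusted p = 0.0158 and 0.0213). Dnaja1, Hsp90aa1 and Hspa1a fell by 0.61, 0.44 and 1.02 log2 (limma adjusted p = 0.0254, 0.0264 and 0.0283). All 5 calls ended without Tie1-WT replicate 1 (0.0656 to 0.0924), and all but that of Dnajb4 without Tie1-WT replicate 2 or 3 (0.0563 to 0.0818). Those of Hsp90aa1 and Hspa1a also ended without Tie1-CR replicate 4 or 5 (0.0510 to 0.0614), that of Hspa1a without Tie1-CR replicate 3 (0.0560), and that of Hsp90aa1 with the replicate block (0.0793). The 7 measured mitochondrial transcripts lay below 0, beside 58.5% of all genes, with a median of -0.17 log2 and 0 past limma's threshold. An unadjusted p below 0.05 was found for 4 of the 7, beside 2065 of 9277 genes. The part of the heat shock and mitochondrial genes in the Egr difference was not tested.

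Markers of endothelium were abundant, and those of each other cell type summed to less. Tie1 itself measured 2079 to 2171 CPM in Tie1-WT and 2329 to 2679 CPM in Tie1-CR (limma adjusted p = 0.107), which does not check the labels, since the allele changes cleavage of the protein. The 10 endothelial markers summed to 18626 to 19987 CPM in Tie1-WT and 19817 to 21960 CPM in Tie1-CR, and 1 of them fell, the ETS factor gene Erg, at 50.3 ± 3.61 and 37.5 ± 1.77 CPM (SD, n = 4 and 5, limma adjusted p = 0.00516). Of 12 leukocyte markers, 2 were measured and summed to 30.6 to 76.9 and 60.2 to 118 CPM, with defining genes such as Ptprc not analysed here. Of 12 epithelial markers, 9 were measured and summed to 315 to 715 and 517 to 858 CPM. Their median difference was 0.83 log2, with 5 at an unadjusted p below 0.05, beside 2065 of 9277 genes. The 9 did not move as 1 group. Hopx, Ager and Aqp5 lay below 0, at -0.17, -0.54 and -0.25 log2. The surfactant genes Sftpc, Sftpb, Sftpa1 and Sftpd stood at 0.87, 0.96, 1.19 and 1.14, Cdh1 at 0.83 and Scgb1a1 at 0.04. The most abundant epithelial marker was Sftpc, at 190 ± 125 and 307 ± 91.2 CPM (SD, n = 4 and 5, limma adjusted p = 0.181), above the endothelial marker Erg. The 3 measured of 7 fibroblast, 3 of 7 mural and 3 of 7 platelet and red cell markers each summed to at most 90.9 CPM in any library. In these lists of other cells, 1 epithelial marker rose, the surfactant gene Sftpd, at 5.88 ± 3.23 and 13.3 ± 3.75 CPM (limma adjusted p = 0.0440), and 1 leukocyte marker fell, the macrophage gene Cd68, from 10.7 ± 1.30 to 5.30 ± 1.05 CPM (SD, n = 4 and 5, limma adjusted p = 0.00640). These calls and that of Erg stand beside 1.28% of all genes that rose and 2.77% that fell. The other measured leukocyte marker, the lysozyme gene Lyz2, stood at 37.8 ± 21.8 and 76.2 ± 21.9 CPM, a difference of 1.11 log2 (limma adjusted p = 0.0669). Their part in the Egr difference was not tested.

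Likeness to the Egr genes was measured over the 9 libraries as Pearson r with the mean deviation of Egr1, Egr2 and Egr3, after removal of genotype means, and is given as a description. Points share libraries and depth, and among 8662 genes compared over 9 libraries some r values are high whatever the gene. The median r was 0.46 over the 21 early genes and -0.09 over all genes, with r of at least 0.5 in 9 of 21 (42.9%) and 11.2%. The highest among early genes were Nr4a2, an orphan nuclear receptor gene (0.94), and the matricellular gene Cyr61 (0.85), followed by Btg2 (0.76), Zfp36 (0.72), Fosb (0.71) and Fos (0.71). For Nab1 and Nab2 r was 0.13 and 0.25, for Srf 0.22 and for Tie1 -0.12. Other members of their lists lay as high as those early genes. Among 9 coregulators r ran from -0.37 to 0.82 (Itch), with 3 at 0.5 or more. It ran from -0.49 to 0.72 (Elk4) in the SRF list (1 of 10) and from -0.44 to 0.83 (Nfatc1) in the NFAT list (2 of 9). Endothelial markers ran from -0.80 to 0.71 (Tek), with 2 of 10 at 0.5 or more.

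**Figure D4:**
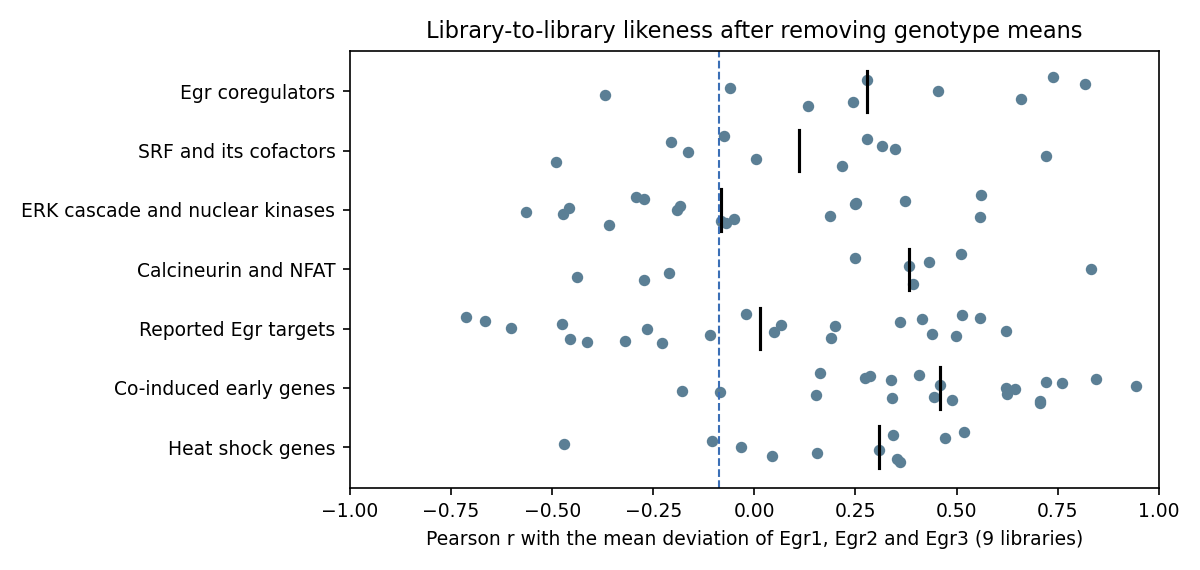
Pearson r of each list member with the mean deviation of Egr1, Egr2 and Egr3 over 9 libraries, with bars for list medians and a dashed line for the median of all genes compared. By median, early genes lie furthest right, at 0.46, and ERK cascade genes centre near the dashed line at -0.08. Single members of other lists also lie far right.

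Median r was 0.28 over coregulators, 0.38 over calcineurin and NFAT genes, 0.01 over reported targets and 0.31 over heat shock genes. The 7 mitochondrial transcripts all had r below 0, from -0.66 to -0.10 with a median of -0.51. Over all genes compared, the median was -0.09 and 43.2% had r above 0. The r values of the mitochondrial transcripts were not tested, nor was their part in the shared movement of the Egr genes.

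Of all genes compared, 18 reached r of at least 0.9 within genotypes, and the 8 highest were Ing3, Sun1, Flii, Nr4a2, Ptprb, Btg1, Tfdp2 and Sirt1, at r of 0.93 to 0.96. Their genotype differences were unlike those of the Egr genes in several cases. Ptprb, which encodes the endothelial phosphatase VE-PTP, measured 3431 ± 291 CPM in Tie1-WT (SD, n = 4) and 3682 CPM on average in Tie1-CR, Sun1 differed by 0.08 log2 and Flii by 0.08 (limma adjusted p = 0.530, 0.399 and 0.272). Btg1, Sirt1 and Nr4a2 fell by 0.44, 0.36 and 0.73 log2 (limma adjusted p = 0.0130, 0.0197 and 0.0367). All 3 calls ended without Tie1-WT replicate 1 (0.0613, 0.0795 and 0.127), that of Sirt1 also without Tie1-WT replicate 2 (0.0659), and that of Nr4a2 with quantile normalization (0.0608) and when any of Tie1-WT replicates 2 and 3 or Tie1-CR replicates 1, 4 and 5 was left out (0.0623 to 0.0918).

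Nr4a2 measured 29.6, 35.6, 23.2 and 18.5 CPM in Tie1-WT replicates 1 to 4 and 13.7, 17.5, 18.1, 12.4 and 15.3 CPM in Tie1-CR replicates 1 to 5. Its high Tie1-WT libraries were replicates 1 and 2 and its low Tie1-CR libraries replicates 1 and 4, as for Egr3, while its highest Tie1-CR library was replicate 3, where all 3 Egr genes were highest in replicate 2.

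Over levels in both genotypes, without removal of the means, the 8 genes of highest r were Nfkbiz, Ppp1r10, Dusp5, Btg1, Rbbp6, Sirt1, Nrd1 and Cyb5b, at r of 0.97 to 0.98. This measure includes the difference for which the Egr genes were chosen, and each of the 8 fell in Tie1-CR. Nfkbiz, a nuclear regulator of NF-kappaB targets, and Dusp5, a nuclear phosphatase of ERK, had r of 0.83 and 0.82 within genotypes, and Ppp1r10, a regulatory subunit of protein phosphatase 1, had 0.85. The calls of Rbbp6, Nrd1 and Cyb5b ended without Tie1-WT replicate 1 (0.066, 0.142 and 0.0773), that of Rbbp6 also with the replicate block (0.0825), and those of Nrd1 and Cyb5b also in other fits. Only Btg1 and Sirt1 stood among the first 8 by both measures.

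Over all genes, 119 rose and 257 fell in Tie1-CR (4.05% in either direction), 68.4% of them lower, and with scaling by the trimmed mean of M values 182 rose and 190 fell (51.1% lower). That scaling changed the log2 differences of Egr1, Egr2 and Egr3 to -1.39, -1.58 and -1.33, and quantile normalization changed them to -1.47, -1.54 and -1.29.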

How the data were processed

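RNA sequencing libraries of lung endothelial cells were prepared, per the labels' protocols, by PicoPure extraction and cDNA amplification (SMARTer Ultra Low). Per the submitters' processing notes, STAR 2.7 and the builds GRCm38.p6 and mm10 were used; which counting tool, annotation and filter followed is not given in the sources used here. The authors deposited 1 table that is named TPM but holds CPM, since 100% of its entries are whole multiples of a step particular to the library, within 0.01 reads. Those steps give depths of 38208696 to 54408116 counted reads, and the table's genes account for 98.3% to 98.6% of them. Read numbers in the text are these multiples. No count model was run on them.

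On log2(CPM + 1), limma 3.58.1 in R 4.3.3 gave two-sided tests with a trended prior. The filter, 1 CPM or more in 4 or more libraries, took out no gene, with Benjamini-Hochberg adjustment over 9277 genes at 0.05. Correlations used exact permutation within genotypes (2880 arrangements). Exon lengths came from GENCODE M21, as the union of annotated exons. Older symbols (Mkl2, Cyr61) were matched through RefSeq.

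The members and lists were chosen with earlier results of these data known. Named genes are the members, all coregulators, up to 6 called members of each list by adjusted p or, where none passed, the 2 of highest expression and 2 of smallest p, and the 8 genes of highest likeness by each measure, without predicted names and with a mean of at least 10 CPM. Alternatives covered the pseudocount, filter, scaling, robust empirical Bayes, a replicate block and each library left out. Python 3.11.15 with matplotlib 3.10.9 was used for plotting.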

Additional observations from a re-analysis of the deposited data

How the results depend on the processing

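The log2 differences of Egr1, Egr2 and Egr3 stayed below 0 in every fit that held them; the filter of at least 5 CPM in all 9 libraries removed Egr2 and Egr3. With a pseudocount of 5, those of Egr2 and Egr3 were -1.09 and -0.89, smaller by construction because the pseudocount exceeds most Tie1-CR values. With 1 library left out they ran from -1.54 to -1.34 for Egr1, -1.74 to -1.47 for Egr2 and -1.48 to -1.21 for Egr3. The number of genes called ran from 60 to 355 with 1 library left out, at 60 without Tie1-WT replicate 1, 135 without its replicate 2, 154 without its replicate 3 and 183 without Tie1-CR replicate 4, and that of list members called (12 with all libraries) from 5 to 17. With 1 library left out, within-genotype r ran from 0.68 to 0.85 for Egr1 and Egr2, 0.87 to 0.96 for Egr1 and Egr3 and 0.70 to 0.95 for Egr2 and Egr3. With quantile normalization r was 0.86 for Egr1 and Egr3, 0.72 for Egr2 and Egr3 and 0.39 for Egr1 and Egr2, past the threshold in none; the cause was not tested. With the replicate block 183 genes were called in place of 376. Replicate 5 exists only in Tie1-CR, so the block takes that library out of the genotype difference. It also leaves less data from which to estimate spread. The log2 difference of Rcan1, for example, was -0.676 both with the block and without Tie1-CR replicate 5. Deviations of same-numbered libraries had r of -0.14, 0.00, -0.06 and 0.19 across genes. Those of differently numbered libraries ran from -0.34 to 0.28, so this check cannot tell whether the numbers pair the samples. The edgeR and DESeq2 alternatives were not run. Read numbers were smallest for Egr2 and Egr3 in Tie1-CR, at 137 to 244. Counting errors there were at most 8.54%, beside coefficients of variation between libraries of 17.5% and 27.9%. None of 70 groups of 4 or 5 libraries, over 35 genes, held a library far from the others.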
